A study of Mus musculus with 5 samples.

Results

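Cadherins and protocadherins are the calcium-dependent adhesion molecules with which neighbouring cells, and neurites and their partners, recognise each other. The genes described here were the protein-coding genes of GENCODE M21 whose symbol is Cdh or Pcdh with a number, the genes of the clusters Pcdha, Pcdhb and Pcdhg, and Celsr1, Celsr2 and Celsr3. They number 95 of the 21755 coding genes on chromosomes 1 to 19 and X. Of the 8038 regions in the deposited table of Pou4f1 regions, 34 overlapped a body of these genes or lay within 10 kb of it, and none of the 34 was near more than 1 of them. The table comes from CUT&Tag on the retina of wildtype mouse embryos at E16.5, in which an antibody on chromatin directs a transposase that tags the DNA beside it. Each library was made from dissociated cells of 4 pooled retinas. Libraries with a rabbit antibody against Pou4f1 (n = 2) were compared with libraries with rabbit IgG (n = 2), all from the same genotype and stage, and the H3K9AC library (n = 1) was not analysed here. In the table, the IgG libraries are the columns named IgG and negative control, the latter taken as IgG because the study names no other negative control than rabbit IgG. A pool of whole retinas holds all retinal cell types, so a signal is not tied to ganglion cells, and fewer cells carrying Pou4f1 at a site cannot be told apart from less Pou4f1 per cell. Binding was measured, not expression.

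Pou4f1 (Brn3a) is a POU-domain transcription factor of differentiating retinal ganglion cells, the neurons whose axons form the optic nerve. Classical cadherins bind through their ectodomains, while p120 catenin and beta-catenin hold their tails and alpha-catenin links them to actin. Type I members such as N-cadherin (Cdh2) hold epithelia and neural tissue together, and type II members such as Cdh6, Cdh8 and Cdh10 mark subsets of neurons, among them retinal cells that stratify and connect in a type-specific way. Clustered protocadherins are expressed by promoter choice, in combinations that differ from neuron to neuron, and serve self-recognition of dendrites. Delta protocadherins are single genes with regional expression in the nervous system. Celsr proteins are seven-pass cadherins of planar cell polarity and axon tracts.

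Exact POU motifs were found in 5 of the 34 regions (14.7%, against 11.1% of all regions). Their surroundings are shown because Pou4f1 belongs to the POU factors that recognise this motif. The motif searched was ATNAATAATT or ATNAATTATT on either strand. All 5 regions lay in introns, those of Pcdh9, Cdh10, Cdh22, Cdh26 and Cdh13, and the Cdh10 region held separate sites, each shown on its own line. Sequences are of the + strand of GRCm38 (mm10), 5′ to 3′, with the matches in capitals. In Cdh22, Cdh26 and Cdh13 the capitals cover overlapping matches on opposite strands.
Pcdh9, intron 1 (chr14:93826090-93826149, + strand): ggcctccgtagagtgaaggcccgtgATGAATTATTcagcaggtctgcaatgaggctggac
Cdh10, intron 1, left site (chr15:18890101-18890160, + strand): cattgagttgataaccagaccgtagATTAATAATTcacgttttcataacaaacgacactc
Cdh10, intron 1, right site (chr15:18890187-18890246, + strand): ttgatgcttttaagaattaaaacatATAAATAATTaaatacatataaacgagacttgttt
Cdh22, intron 1 (chr2:165211446-165211505, + strand): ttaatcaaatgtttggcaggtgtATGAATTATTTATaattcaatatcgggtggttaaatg
Cdh26, intron 14 (chr2:178483565-178483624, + strand): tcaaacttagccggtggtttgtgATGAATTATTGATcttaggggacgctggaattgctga
Cdh13, intron 2 (chr8:118591371-118591430, + strand): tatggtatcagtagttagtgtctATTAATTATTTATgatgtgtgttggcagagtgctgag
Distances from the centre of the region to the site were 31 bp in Cdh26, 49 bp in Cdh13, 172 bp in Pcdh9, 201 and 287 bp in Cdh10 and 310 bp in Cdh22.

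Sequences of the central 300 bases are given for the cadherin regions with the highest mean Pou4f1 signal. None of the 3 holds an exact match. Capitals mark stretches that differ from the motif at no more than 1 of its fixed letters, a search added after the data were seen.
Cdh10, intron 1, highest region (chr15:18881311-18881610, + strand): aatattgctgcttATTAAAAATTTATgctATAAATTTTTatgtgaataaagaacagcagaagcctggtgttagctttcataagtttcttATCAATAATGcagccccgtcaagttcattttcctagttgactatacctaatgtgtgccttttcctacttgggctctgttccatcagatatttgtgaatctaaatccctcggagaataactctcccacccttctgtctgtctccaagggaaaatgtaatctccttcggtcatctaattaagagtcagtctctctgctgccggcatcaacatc
Cdh10, intron 1, next highest region (chr15:18888926-18889225, + strand): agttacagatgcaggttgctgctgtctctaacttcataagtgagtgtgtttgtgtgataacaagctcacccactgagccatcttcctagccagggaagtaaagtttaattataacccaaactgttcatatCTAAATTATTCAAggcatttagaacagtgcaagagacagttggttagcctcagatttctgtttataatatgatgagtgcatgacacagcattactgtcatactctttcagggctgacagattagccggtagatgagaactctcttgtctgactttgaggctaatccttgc
Cdh22, intron 8 (chr2:165131207-165131506, + strand): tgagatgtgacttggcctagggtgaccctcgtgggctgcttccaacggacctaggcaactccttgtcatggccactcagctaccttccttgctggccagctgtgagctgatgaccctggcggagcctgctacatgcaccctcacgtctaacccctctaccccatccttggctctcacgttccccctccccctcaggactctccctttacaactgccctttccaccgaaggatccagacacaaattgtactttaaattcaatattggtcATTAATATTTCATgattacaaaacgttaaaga
The GC content of these windows was 38.7% and 40.7% in Cdh10 and 51.3% in Cdh22. Near matches lay at 3 places in the highest Cdh10 window and at 1 place in each of the others. The sites and windows belong to regions whose signal is given with their genes below.

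Regions of the table were found near 20 of the 95 genes (21.1%), against 35.3% of all coding genes. The members divided sharply by genomic arrangement. None of the 57 genes of the clusters had a region, whereas 20 of the 38 genes outside them did (52.6%, 95% Clopper-Pearson interval 35.8 to 69.0%). The 57 share 1 stretch of chromosome 18 and are not independent observations, so no interval is given for the 95. With each cluster counted as 1 gene, 20 of 41 had a region (48.8%, 32.9 to 64.9%), an interval that holds the 35.3%. Among the genes with a region, 11 had 1, 6 had 2, Cdh10 had 3, and Cdh22 and Cdh13 had 4 each. Type II classical cadherins had a region near 6 of 13 genes, type I near 2 of 5 and the remaining cadherins near 3 of 5. Of the delta-1 protocadherins 3 of 4 had one, of the delta-2 protocadherins 3 of 5, of the other non-clustered protocadherins 1 of 3 and of the Celsr genes 2 of 3. Intervals cover counting error only.

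Cadherin genes outside the clusters are long, and length moved with the share. Their median body was 115 kb, against 17.4 kb for all coding genes. Above 100 kb, 13 of 20 cadherin genes had a region (65.0%, 40.8 to 84.6%), against 57.0% of all coding genes of that length. Between 20 and 100 kb it was 5 of 12 (41.7%, 15.2 to 72.3%), against 41.7%, and under 20 kb 2 of 6 (33.3%, 4.33 to 77.7%), against 26.5%. In each length class the interval of the cadherin genes held the share of all coding genes. With so few genes these intervals are too wide to show that the shares are alike. A region within 1 kb of an annotated transcription start of the gene was present for 15 of 38 genes (39.5%), against 25.6% of all coding genes, and for 9 of 20 genes over 100 kb (45.0%), against 40.7%. The part of gene length in the higher overall share was not tested.

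**Figure D1:**
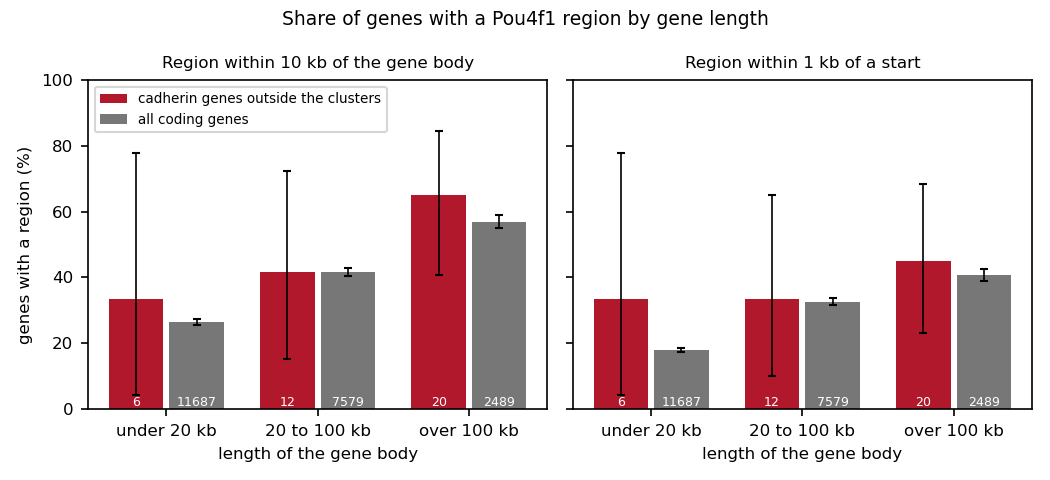
Percent of genes with a region of the table within 10 kb of the gene body (left) or within 1 kb of a start of the gene (right), by length of the gene body, for cadherin genes outside the clusters (red) and all coding genes (grey). Bars start at 0, error bars are 95% Clopper-Pearson intervals and white numbers are the numbers of genes. The red intervals hold the grey shares in every class, but they are wide because the classes hold few cadherin genes.

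The Pou4f1 signal stood above IgG in all 34 regions. The lower Pou4f1 value exceeded the higher IgG value in 34 of 34, as it did in 96.5% of the whole table. The regions had been called by the authors from Pou4f1 signal with IgG as the control. Part of this excess, and of the differences tested next, comes from that choice, so the tests are not independent of it. By limma on log2(signal + 1) with Benjamini-Hochberg adjustment over all regions, 26 of 34 were higher in Pou4f1 at an adjusted p under 0.05 (76.5%), against 64.8% of all regions, and none was lower. Without Pou4f1 replicate 1 the median log2 difference of the cadherin regions was 5.29, against 5.06 over all regions. Without replicate 2 it was 5.55, against 5.38. Under other scalings of IgG the count of higher cadherin regions fell to 13, 9 or 7. These were 38.2%, 26.5% and 20.6% of the 34, near the 36.7%, 26.8% and 22.7% of all regions. One of these scalings, column totals as library sizes, sums over the called regions alone, so it takes out a difference that most regions share. The median cadherin region had a signal of 158 in replicate 1 and 129 in replicate 2, against 184 and 155 over the whole table. In the library named IgG the median was 4.63, and in that named negative control the median was 0. The highest IgG value of any cadherin region was 44.9, beside Celsr3, and the lowest Pou4f1 value was 48.9, at the start of Cdh22.

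Whether a region passed the threshold went with its IgG values. All 7 regions listed at 0 in both IgG libraries were higher, as were 99.7% of all such regions, and no fold is given for them. All 7 with signal in both IgG libraries were higher too, against 74.1% of such regions, with a median log2 difference of 3.59 against 3.32. Of the 20 regions listed at 0 in 1 IgG library, 12 were higher, against 39.4% of such regions, with a median log2 difference of 5.45 against 5.43. The size of such a difference depends on the value added before taking logs. At the start of Pcdh17 it was 5.90 with 1 added, 7.58 with 0.1 and 4.12 with 10. The 8 regions that missed the threshold all belonged to these 20, and lay at Cdh6, Cdh22, Cdh24, Pcdh1 (2), Pcdh15, Pcdh17 and Celsr3.

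**Figure D2:**
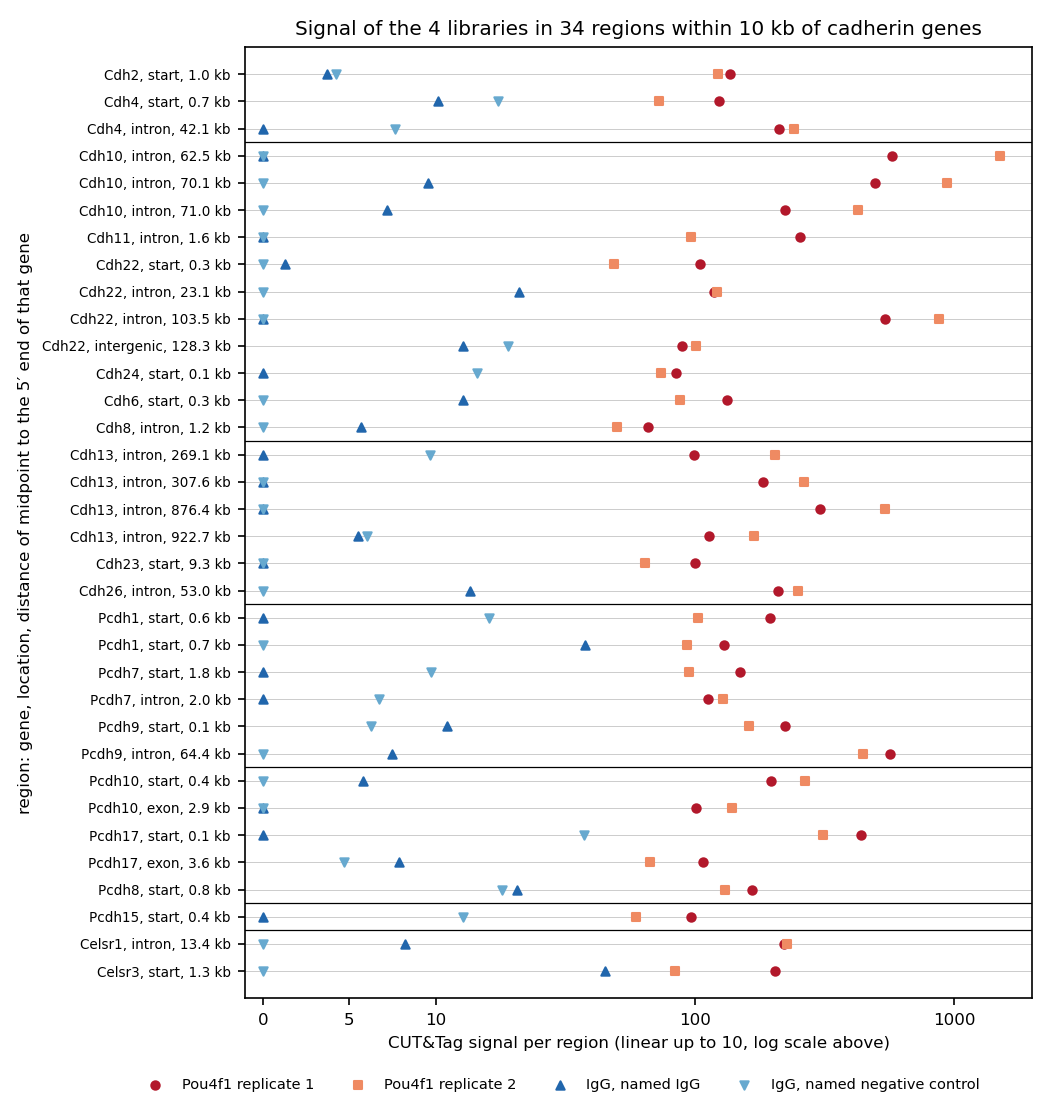
CUT&Tag signal per region in the 4 libraries for the 34 regions (linear up to 10, log scale above), ordered by family, with Pou4f1 replicates as red circles and orange squares and the IgG libraries as triangles. Row labels give the gene, the location (start: any annotated start, also an internal one) and the distance from the midpoint to the 5′ end of that gene, and in every row both Pou4f1 values lie right of both IgG values, with the highest signal in Cdh10.

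Type I classical cadherins held 3 regions, all higher. Cdh2, the N-cadherin of neuroepithelium and neurons, carried a broad region of 3272 bp over its start on chromosome 18 (chr18:16806574-16809845). Replicates 1 and 2 of Pou4f1 gave a signal of 137 and 123 there. The IgG values were 3.73 in the library named IgG and 4.21 in the other, and values follow this order throughout. The groups did not overlap, with a log2 difference of 4.72 ± 0.38 (SE, n = 2 per group, adjusted p = 0.00390). Cdh4, or R-cadherin, first described in retina, had a region at its start and another in intron 2, 42.1 kb from the 5′ end of the gene. At the start (chr2:179442496-179443690) the signal was 124 and 72.9 in Pou4f1 and 10.2 and 17.5 in IgG, a log2 difference of 2.74 ± 0.56 (adjusted p = 0.0294) that turned to -1.20 with column totals as library sizes. In intron 2 (chr2:179484082-179485013) it was higher, at 211 and 242 in Pou4f1 against 0 and 7.63 in IgG, a log2 difference of 6.27 ± 1.28 (adjusted p = 0.0297). The groups did not overlap in either Cdh4 region, and replicate 2 fell below replicate 1 at the start but not in the intron. No region was found for Cdh1 (E-cadherin) and Cdh3 (P-cadherin), epithelial genes that neighbour each other on chromosome 8, or for Cdh15, the M-cadherin of muscle.

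Type II classical cadherins held 11 regions, 8 of them higher. Cdh10 stood out by mean signal, with 3 regions in intron 1, between the 5′ end of the gene and an internal annotated start. The strongest (chr15:18881119-18881802), 62.5 kb from the 5′ end and 18.1 kb from the internal start, gave 576 and 1510.4 in Pou4f1 against 0 in each IgG library (adjusted p = 0.00267). It ranked 19 of 8038 by mean Pou4f1 signal and was the only cadherin region in the top 1%. Replicate 2 was 2.62 times replicate 1 there, the largest such ratio among the cadherin regions. In replicate 1 its 576 was close to 569 in intron 1 of Pcdh9 and 541 in intron 8 of Cdh22, so its clear lead came from replicate 2. The next (chr15:18888756-18889394), 70.1 kb from the 5′ end, gave 496 and 936 against 9.54 and 0, a log2 difference of 7.72 ± 1.44 (adjusted p = 0.0248), and ranked 97. The one farthest from the 5′ end (chr15:18889505-18890353), at 71.0 kb, holds both of the Cdh10 POU sites shown above. It gave 223 and 425 against 7.18 and 0, a log2 difference of 6.75 ± 1.31 (adjusted p = 0.0268). In all 3 the Pou4f1 values were well above IgG, and the order of the regions was the same in both replicates.

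Cdh10 lies on chromosome 15 in a row of type II genes, with Cdh9 on one side and Cdh12 and Cdh18 on the other. None of those neighbours had a region, but Cdh6, which lies beyond Cdh9 on the same chromosome, had 1 and is described below. The nearest region was 2024 kb from Cdh9, 756 kb from Cdh12, whose body alone covers 1140 kb, and 203 kb from Cdh18, whose body covers 925 kb. Cdh7, Cdh19 and Cdh20, which lie together on chromosome 1, also had none, the nearest regions being 1724, 887 and 361 kb away. Cdh5, the VE-cadherin of blood vessel endothelium, had its nearest region 25.5 kb away.

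Cdh22, expressed in brain, had 4 regions on chromosome 2 that differed widely. The region in intron 8 (chr2:165130877-165131836), 103 kb from the 5′ end of the gene, gave 541 and 877 in Pou4f1 against 0 in each IgG library (adjusted p = 0.00222), rank 101 of all regions. That at the start (chr2:165233923-165235266) gave only 105 and 48.9 against 1.30 and 0, a log2 difference of 5.58 ± 0.74 (adjusted p = 0.0120). In intron 1 (chr2:165211351-165212219), where a POU site was found, 119 and 122 stood against 21.1 and 0. The log2 difference in that intron was 4.69 ± 1.80, and it missed the threshold (adjusted p = 0.0869). Past the end of the gene (chr2:165105863-165107262), 4245 bp away, 89.5 and 101 stood against 12.8 and 19.1, and the log2 difference of 2.53 ± 0.44 was the smallest of all 34 (adjusted p = 0.0211). It turned to -1.42 with column totals as library sizes. Within Cdh22 the intron 8 region was above the others in both replicates, and the remaining 3 lay between 48.9 and 122.

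The other type II genes had 1 region each, at or close to the start. Cdh11, a cadherin of mesenchyme and neurons, had one in intron 1 (chr8:102783600-102784444), 1620 bp from the 5′ end, with 254 and 96.6 in Pou4f1 and 0 in both IgG libraries (adjusted p = 0.00505). Its replicates differed most in the direction of replicate 1, at a ratio of 0.380. Cdh8, which marks subsets of retinal bipolar cells, had the lowest mean signal of all 34 regions, in intron 1 (chr8:99414412-99416176) at 1177 bp from the 5′ end. Its values were 65.9 and 50.1 against 5.66 and 0, a log2 difference of 4.50 ± 1.15 (adjusted p = 0.0438). Cdh6, which marks retinal ganglion cells of non-image-forming circuits, gave 133 and 87.6 against 12.8 and 0 at its start (chr15:13172958-13173732), a log2 difference of 4.88 ± 1.56 (adjusted p = 0.0631). The start of Cdh24 (chr14:54640765-54642173) gave 84.7 and 74.0 against 0 and 14.4, a log2 difference of 4.35 ± 1.60 (adjusted p = 0.0808). The Cdh24 region also holds the start of Gm17606 and overlaps Acin1, so it cannot be assigned to Cdh24 alone. In Cdh6 and Cdh24 the groups did not overlap, although neither passed the test.

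Cadherins outside the classical types held 6 regions, all higher. Cdh13 encodes T-cadherin, which is anchored to the membrane by a lipid and lacks the tail that binds catenins. Its 4 regions lay in introns along a body of 1041 kb on chromosome 8, and the nearest to the 5′ end lay 269 kb from it. From left to right, the first in intron 2 (chr8:118552162-118553582) gave 99.1 and 203 against 0 and 9.70, a log2 difference of 5.45 ± 1.46 (adjusted p = 0.0471). The other region of intron 2 (chr8:118591047-118591656), with the POU sites, gave 184 and 263 against 0 in both IgG libraries (adjusted p = 0.00222). In intron 7 (chr8:119159832-119160381) the signal reached 303 and 540.0, again with 0 in both IgG libraries (adjusted p = 0.00222). In intron 8 (chr8:119205881-119206983) it was 113 and 169 against 5.53 and 6.05, a log2 difference of 4.36 ± 0.44 (adjusted p = 0.00642). Replicate 2 lay above replicate 1 in all 4, and the intron 7 region was the highest in both. Cdh26 had 1 region, in intron 14 of 15 exons (chr2:178483034-178484093), with POU sites near its centre and a signal of 210.0 and 251 against 13.5 and 0. The log2 difference was 5.92 ± 1.57 (adjusted p = 0.0466).

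Cdh23 and Pcdh15 encode the binding partners that form the tip link of hair cells in the inner ear, and both are also expressed in photoreceptors. At an internal start in intron 1 of Cdh23 (chr10:60686718-60687669), 9.30 kb from the 5′ end of the gene, the signal was 100.2 and 64.2 against 0 in both IgG libraries (adjusted p = 0.00294). At the 5′ end of Pcdh15 (chr10:73099168-73100249) it was 97.1 and 59.3 against 0 and 12.7, a log2 difference of 4.38 ± 1.56 (adjusted p = 0.0766). The Pou4f1 values of the pair were alike, and the call differed with 1 IgG value. Neither gene had a region elsewhere, although the body of Cdh23 covers 394 kb and that of Pcdh15 covers 1550.4 kb. Cdh16 and Cdh17, cadherins of kidney and intestine, had no region, and the nearest lay 159 and 96.4 kb away.

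Delta-1 protocadherins held 6 regions, 4 of them higher. Pcdh9 carried the highest signal of all protocadherin regions in intron 1 (chr14:93825883-93826699), 64.4 kb from the 5′ end of the gene and around the POU site shown above. Its signal was 569 and 444 in Pou4f1 against 7.47 and 0, a log2 difference of 7.44 ± 1.28 (adjusted p = 0.0210), rank 328 of all regions. A region of 2204 bp at the start of Pcdh9 (chr14:93889649-93891852) gave 222 and 162 against 11.1 and 6.25, a log2 difference of 4.35 ± 0.51 (adjusted p = 0.00892). Both regions of this gene had replicate 1 above replicate 2, and the intronic one was higher in each. Pcdh7 had a region in exon 1 (chr5:57719070-57720533), with 1429 of its 1464 bp in coding sequence, that gave 149 and 94.7 against 0 and 9.72, a log2 difference of 5.20 ± 1.42 (adjusted p = 0.0492). The other, 984 bp upstream (chr5:57715001-57716983), gave 113 and 128 against 0 and 6.72, a log2 difference of 5.45 ± 1.22 (adjusted p = 0.0353), and lies in an intron of the noncoding gene 4932441J04Rik. Pcdh1 had a pair of regions around its start on chromosome 18 neither of which passed the test. One (chr18:38210910-38211877) gave 130.0 and 92.9 against 37.8 and 0, a log2 difference of 4.15 ± 2.12 (adjusted p = 0.147). The other (chr18:38212293-38213012) gave 196 and 103 against 0 and 16.1, a log2 difference of 5.11 ± 1.70 (adjusted p = 0.0674). Both regions also overlap the noncoding gene 2010320O07Rik. Pcdh11x, with a body of 620 kb on the X chromosome, had none, and its nearest region was 828 kb away.

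Delta-2 protocadherins, whose tails recruit the WAVE complex of actin assembly, held 5 regions, 4 of them higher, all at the start or in exon 1. In these genes exon 1 encodes the ectodomain, and 3 of the regions lay largely in coding sequence. Pcdh10 had a region at its start (chr3:45377459-45378514) with 197 and 267 against 5.78 and 0, a log2 difference of 6.47 ± 1.16 (adjusted p = 0.0230). Its other region (chr3:45380756-45381807) lay wholly in coding sequence, 1052 of 1052 bp, and gave 101 and 140 against 0 in both IgG libraries (adjusted p = 0.00228). Pcdh8 had 1 region of 2343 bp (chr14:79769297-79771639), with 1825 bp in coding sequence, that gave 166 and 130.2 against 20.7 and 18. Both IgG libraries had signal there, and the log2 difference of Pcdh8 was 2.87 ± 0.41 (adjusted p = 0.0138). It turned to -1.11 with column totals as library sizes. The region also overlaps the antisense gene Gm9748. Pcdh17 had the highest signal of any cadherin region at a start (chr14:84443121-84443872), 437 and 312, but IgG values of 0 and 37.2. Its log2 difference of 5.90 ± 2.11 missed the threshold (adjusted p = 0.0772). In exon 1 of Pcdh17 a region of 3038 bp (chr14:84445662-84448699), with 2559 bp in coding sequence, gave 107 and 66.9 against 7.91 and 4.68, a log2 difference of 3.59 ± 0.52 (adjusted p = 0.0148) that turned to -0.24 with column totals. In Pcdh17 the region of higher signal missed the test and that of lower signal passed it. Pcdh18 and Pcdh19 had no region, the nearest being 747 and 896 kb away, and neither had Pcdh12 and Pcdh20 among the other protocadherins.

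Seven-pass cadherins held 2 regions. Celsr1, a core gene of planar cell polarity, had one in intron 1 (chr15:86019958-86020862), 13.4 kb from the 5′ end, with 221 and 226 against 8.26 and 0. The log2 difference was 6.21 ± 1.32 (adjusted p = 0.0320). Celsr3, which is required for axon tracts of the forebrain, had one 794 bp upstream (chr9:108824487-108825526) that overlaps the noncoding genes Gm35025 and Gm37714. Its values were 204 and 83.8 against 44.9 and 0, a log2 difference of 4.28 ± 2.26 with the largest adjusted p of the 34 regions (0.156). Celsr2 had none, and its nearest region was 147 kb away.

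Cadherin regions lay in introns more often than the regions of the table as a whole. A region was called at a start where its midpoint lay within 1 kb of an annotated start of any gene, internal starts included. By this definition 15 of 34 lay at a start (44.1%, against 64.1% of the 8028 regions on chromosomes), 2 in an exon (5.88%, against 2.03%), 16 in an intron (47.1%, against 18.6%) and 1 between genes (2.94%, against 15.2%). Regions were chosen within and around long genes, and these shares were not tested. At starts the median signal of cadherin regions was 137 and 92.9 in the Pou4f1 replicates, against 183 and 130.2 for all regions at starts. Away from starts it was 210.0 and 226, against 188 and 231. GC content was like that of all regions in each class, 63.2% against 62.7% at starts and 49.8% against 49.0% away from them.

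The replicates differed in opposite directions in these classes. Replicate 2 exceeded replicate 1 in 1 of 15 cadherin regions at starts (6.67%, against 16.6% of all regions at starts), the start of Pcdh10. It did so in 15 of 19 regions away from starts (78.9%, against 62.8%), the others being those of Cdh8, Cdh11, the intron of Pcdh9 and exon 1 of Pcdh17. Of the regions at starts 8 of 15 were higher by limma (53.3%, against 62.1%), and of the others 18 of 19 (94.7%, against 69.7%). The split of the replicates by location held for the table as a whole. In the upper 5% of all regions by mean signal there were 4 cadherin regions (11.8% of them), all in introns, those of Cdh10 (2), Cdh22 and Pcdh9.

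**Figure D3:**
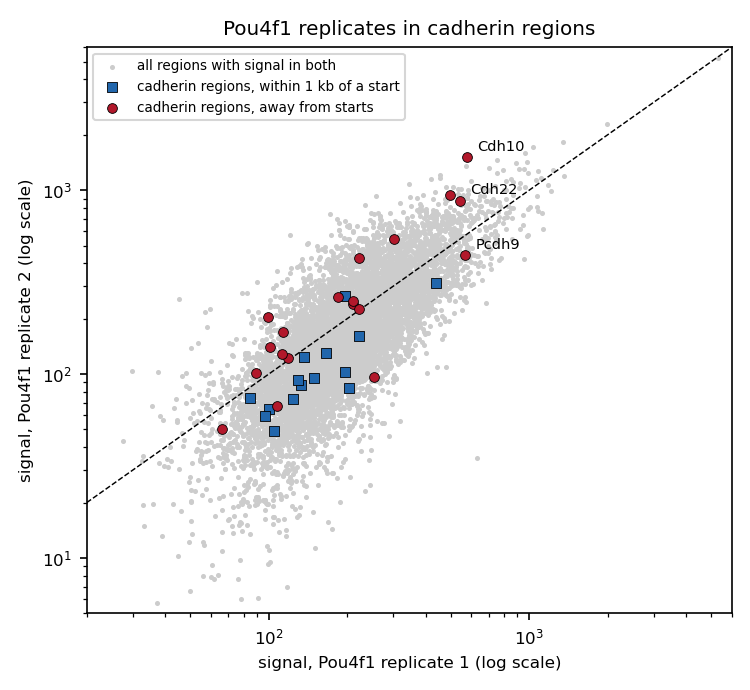
Signal of Pou4f1 replicate 1 (x axis) against replicate 2 (y axis), both on log scales, for all regions with signal in both (grey), cadherin regions at starts (blue squares) and away from starts (red circles). The dashed line marks equal signal, with 1 of 15 squares and 15 of 19 circles above it, and the named Cdh10, Cdh22 and Pcdh9 regions lie in the upper part of the table.

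The clustered protocadherins had no region of the table over the whole of their clusters. Pcdha (14 genes), Pcdhb (22) and Pcdhg (21) follow each other on chromosome 18 from 36930184 to 37841873, a span of 912 kb with 86 distinct annotated starts of cluster genes. The gap between the flanking regions was 1.19 Mb, 185 kb from the left end of the clusters to the nearest region and 93.0 kb from the right end. The left region lay at the start of Ndufa2, with a signal of 168 and 97.2 against 0 in both IgG libraries. The right region lay at the start of Diaph1, with 251 and 284 against 29.3 and 17.1. Both come from a table called with IgG as the control, so their signal above IgG says nothing about the clusters. Gaps longer than this were 406 of 8008 (5.07%), and the median gap was 133 kb. Counted by genes, 67 coding genes lay wholly inside the gap, and 8 other gaps held at least as many, all of them longer. Not all of these were cluster genes, since Hars, Hars2, Zmat2, Wdr55 and Taf7 also lay in the gap, with no region within 10 kb. Since the table lists only called regions, signal below the limit of the caller in the clusters was not analysed here. Promoters and exons of the cluster genes resemble each other, and the treatment of reads that match several places is not stated in the labels or the methods.

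**Figure D4:**
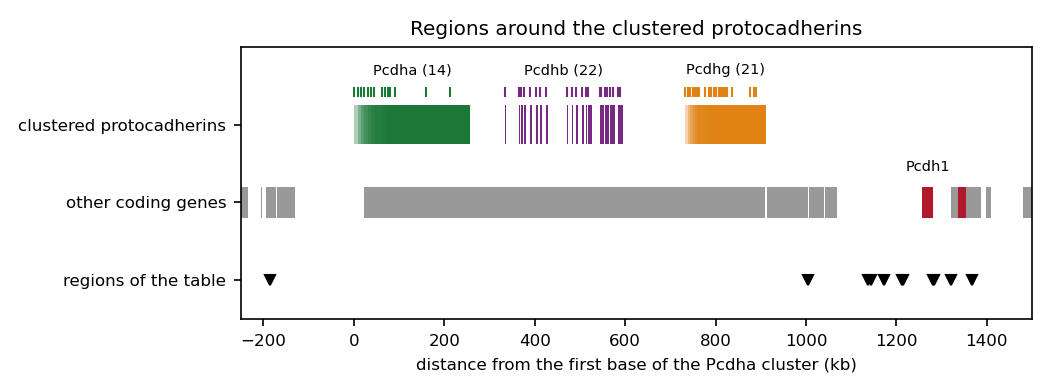
Map of the clustered protocadherins, with distance from the first base of the Pcdha cluster in kb on the x axis, gene bodies as blocks (Pcdha green, Pcdhb purple, Pcdhg orange, other coding genes grey, Pcdh1 and Pcdh12 red), short ticks for the left ends of cluster genes and black triangles for regions of the table. No triangle lies between 185 kb left of the clusters and 93.0 kb right of them.

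The share of regions with an exact POU motif in the central 200 bp was 2 of 34 (5.88%, 0.720 to 19.7%), those of Cdh26 and Cdh13, against 4.38% of all regions. Away from starts it was 2 of 19 (10.5%), against 11.0%, and at starts 0 of 15, against 0.680%, where a count of 0 of 15 allows up to 21.8%. Over the whole region it was 5 of 34 (14.7%), against 11.1%, and away from starts 5 of 19 (26.3%), against 26.1%. With at most 1 mismatch in the central 200 bp it was 8 of 34 (23.5%), against 13.4%, and all 8 lay away from starts (42.1% of 19, against 32.7%). The intervals of the cadherin regions held the shares of all regions in each of these searches, but with 34 regions or fewer they are wide. A match is a description of the sequence, and the strongest regions of Cdh10 and Cdh22 had none that was exact.

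The members just inside and just outside the limit of 10 kb were few. Just inside lay the regions of Celsr3 (794 bp from the body), Pcdh7 (984 bp) and Cdh22 (4245 bp). Just outside lay a region 11.9 kb from Pcdh12, with 235 and 93.6 against 0 and 20.3, and a region 12.8 kb from Cdh1, with 194 and 107 against 1.42 and 0. Each of the latter lay at the start of another gene. With a limit of 50 kb, 24 of the 95 genes had a region (25.3%), against 53.6% of all coding genes.

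Genes whose products work with cadherins were examined as a list of 42. Regions lay near 26 of them (61.9%, against 35.3% of all coding genes), with one within 1 kb of a start for 19 (45.2%, against 25.6%). The list was not matched to other genes by length, and neither difference was tested. By limma 28 of the 37 regions were higher (75.7%, against 64.8% of all regions). Among catenins and their linkers 6 of 9 had a region, with none for Ctnna1, Ctnnb1 and Ctnnd1, the alpha-, beta- and p120 catenins of most cells. Jup, or plakoglobin, gave 444 and 533 against 0 in both IgG libraries in its stronger region, which lay between genes, 5432 bp from the body. Ctnnd2, the neural delta-catenin, gave 335 and 547 against 8.85 and 10.3 in an intron. The groups were far apart in each. The Fat and Dachsous genes had a region near 4 of 6, the planar polarity genes near 6 of 9 and the calsyntenins near 1 of 3, Clstn2. Among these, the regions of Dchs1, Dvl1 and Dvl2 lay 8234, 9655 and 7958 bp from the gene bodies. Those of Dchs1 and Dvl1 lay at the start of another gene, and that of Dvl2 in an intron of another gene. A region within 1 kb of a start of the gene itself was present for 2 of 6 Fat and Dachsous genes and 2 of 9 planar polarity genes. Of the WAVE complex, the partner of delta-2 protocadherins, 5 of 7 genes had one, with the highest signal in an intron of Cyfip2 at 389 and 595 against 0 and 14.3. Of 8 genes for the promoter choice of clustered protocadherins, 4 had a region, namely Rad21, Smc3, Smchd1 and Wiz, and Ctcf had none. By limma the regions of Rad21 and Wiz missed the threshold (adjusted p = 0.0621 and 0.102). That of Wiz lay 3239 bp from its body, at the start of another gene.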

How the data were processed

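CUT&Tag libraries of pooled E16.5 retinas were analysed from the table of 8038 regions deposited by the authors. Per the study's methods and the submitters' processing notes, reads were trimmed, masked and mapped to mm10 with Bowtie2 2.4.5. Regions were called with SEACR in relaxed mode, and the study used IgG as the negative control for the calling. The deposited values are signal per region and library, not read counts. The sources used here do not give their scaling or the number of reads per library, so depth is unknown, and the low IgG signal limits the precision of each difference.

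Signal was used without further scaling. Pou4f1 (n = 2) was compared with IgG (n = 2) with limma (version 3.58.1, R 4.3.3) after log2(signal + 1), without covariates. P-values were adjusted by Benjamini-Hochberg across the 8038 regions, with a threshold of 0.05. On this scale the change of a low signal is understated. Whether replicates came from separate animals beyond their pools is not labelled, so p-values measure the spread between these libraries. An exact permutation test of 2 against 2 libraries cannot reach this threshold. Genes came from GENCODE M21 and sequence from GRCm38, with positions counted from 1. The motif was searched by script on both strands, and shares have Clopper-Pearson intervals. The fit was tested on simulated data that did not model absent IgG signal, so that test does not cover regions without signal in an IgG library. Other steps used Python 3.11.15, matplotlib 3.10.9, scipy 1.17.1, pandas 2.3.3 and numpy 2.4.6.

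By rule, every member gene with a region was named with its regions, those without were named by family, and sequences were shown for motif sites and for the 3 regions of highest signal. Members, families and the list of partner genes were chosen with earlier results of these data known. Alternatives were other scalings, pseudocounts, a filter on summed signal, a trend of the spread, a 2-fold threshold, each library left out, other distances and symbol rules, and other motif windows. The near match of the motif and the share without the clusters were added after the data were seen.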

Additional observations from a re-analysis of the deposited data

How the results depend on the processing

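The 26 cadherin regions that were higher in Pou4f1 (76.5%, against 64.8% of all regions) became 13 with IgG taken as 2 times shallower (38.2%, against 36.7%). With IgG taken as 4 times shallower 9 were higher (26.5%, against 26.8%), and with column totals as library sizes 7 (20.6%, against 22.7%). A pseudocount of 0.1 gave 15 (44.1%, against 43.4%). In these settings the cadherin share was near that of all regions. Leaving out 1 library gave 10 to 34, with 10 without Pou4f1 replicate 1, 10 without replicate 2, and 34 without either of the IgG libraries. The count of higher regions was 33 with a pseudocount of 10 (97.1%, against 92.6%) and 22 against a 2-fold difference (64.7%, against 54.2%). It was 26 with the filter on summed signal or a trend of the spread (76.5%, against 64.8% and 66.4%). Each fit without a library assumes that the lone library varies like the others. The 7 regions that kept their call in every setting were the 7 listed at 0 in both IgG libraries, in which no scaling of IgG can change the values, so this is no sign of stability.

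Column totals shifted the median log2 difference of all regions by -2.48, and with IgG 2 or 4 times shallower the shifts were -0.51 and -1.02. A pseudocount of 0.1 or 10 shifted it by 1.63 or -1.77. The column totals are sums over the called regions alone, so equal totals take out a difference that most regions share. A sign turned by this scaling does not by itself show lower Pou4f1 signal. With column totals the log2 difference turned to -1.11 in Pcdh8, -0.24 in exon 1 of Pcdh17, -1.42 past the end of Cdh22 and -1.20 at the start of Cdh4, and 0 of these passed the threshold. No paired analysis was possible because the IgG columns carry no replicate number. The share of genes with a region, 21.1%, became 48.8% with each cluster counted as 1 gene and 52.6% with the clusters left out. It lay between 15.8% and 25.3% under the other distances and rules. The median signal of the regions stayed between 129 and 158. The share of regions with the POU motif became 23.5% with at most 1 mismatch. With 2 libraries per group and IgG values at or near 0, single IgG values decide many calls, and the unknown scaling limits any statement on the size of a difference.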
